A study of Mus musculus with 34 samples.

Results

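The lungs of mice given 54 µg of carbon nanotube material NRCWE-043 were compared, over all genes, with those of mice given 54 µg of NRCWE-045. The comparison takes every array of both groups: 5 of NRCWE-043 and 5 of NRCWE-045, 10 of the 34 arrays of the series. Total RNA came from random sections of the frozen lungs of female C57BL/6 mice aged 5 to 7 weeks, 28 days after 1 intratracheal instillation in 40 µl, in which the suspension is delivered through the windpipe. The other groups were 5 controls, 5 NRCWE-043 and 3 NRCWE-045 arrays at 18 µg, and 6 and 5 NRCWE-044 arrays at 18 and 54 µg. The labels do not say what the control mice received. The materials are known here by their codes only, so no difference in their structure is described. Nothing in the labels pairs the samples. The p-values measure only the spread between samples within groups, pooled for each gene over all groups of the series.

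Nanotubes that stay in the lung are taken up by macrophages, which release chemokines that draw neutrophils and monocytes from the blood. Lung tissue also keeps a circadian clock. In it ARNTL and CLOCK switch on genes such as Per3, Nr1d2, Dbp, Tef and Hlf, and the NR1D proteins repress Arntl in turn, so Arntl peaks when its targets are low. Heat shock genes code for chaperones that fold proteins, and interferon genes code for antiviral proteins made in answer to interferons.

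Each value below is a log2 ratio of lung RNA (Cy5) to a common reference RNA from 11 mouse cell lines (Cy3) on the same array, so a value of 0 means equal signal. A difference is NRCWE-043 minus NRCWE-045 unless stated otherwise, and a difference of 1 is a doubling. On the 10 arrays 52.1 to 68.5% of probes were well above background in Cy5, and the arrays of different groups correlated across units with r of 0.915 to 0.978, against 0.943 to 0.972 within NRCWE-043 and 0.919 to 0.978 within NRCWE-045. Lung markers were strong in both groups: Sftpc, the surfactant protein of alveolar type 2 cells, averaged 8.13 and 8.31, and Scgb1a1, the secretory protein of airway club cells, averaged 7.72 and 7.97. Replicates 1 to 4 of both groups share slides 1 to 4, one of each group on each. Replicate 5 of each group lies on a slide without the other group.

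Some arrays stood apart before any comparison. Cardiac muscle markers were summarised as a list score, the mean log2 ratio of the list on an array relative to the control mean. On NRCWE-043 arrays it was 0.86, 0.46, -1.72, 0.30 and -1.68, and on NRCWE-045 arrays -1.58, -1.71, -1.63, 2.15 and -1.71. The 18 heart markers tested had a median difference of 0.41, none with an unadjusted p under 0.05. Without NRCWE-045 replicate 4 the median was 1.34, 16 of 18 were above 0 and 7 had an unadjusted p under 0.05, beside 567 of all units on that side. The fat score was highest on NRCWE-045 replicate 4 at 2.42, with the other 9 arrays between -0.92 and 0.63, and the fat list's median difference was -0.07 with that array and 0.40 without it. The liver score was 1.38 on NRCWE-045 replicate 1 and between -0.24 and 0.18 on the other 9, and the liver list's median was -0.44 with that array and -0.23 without it. Per the labels, liver and heart were taken at the same necropsy. Replicate 1 of NRCWE-043 had the highest interferon score. The interferon, chemokine and chaperone results are given with and without the array that stands apart in them. The part of the other tissues in the differences was not tested.

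Spon2 was the one gene that passed the test between the materials. It codes for spondin 2 (mindin), a secreted matrix protein that binds integrins and microbial products. On the 5 NRCWE-043 arrays it read -0.00, -0.36, 0.84, -0.99 and -0.69. On the 5 NRCWE-045 arrays it read -2.46, -3.13, -2.48, -2.08 and -3.34. Every NRCWE-043 array was above every NRCWE-045 array. The difference was 2.46 ± 0.41 (SE, n = 5 and 5; 95% confidence interval 1.63 to 3.29), a 5.5-fold higher ratio in NRCWE-043. Its adjusted p was 0.0294 with limma and Benjamini-Hochberg adjustment over 29351 units tested, a unit being a named gene or an accession without a name. The 4 differences within a slide were 2.45, 2.76, 3.33 and 1.10, and with slide as a block the difference was 2.52 ± 0.41 with an adjusted p of 0.0427.

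The side on which Spon2 differed was NRCWE-043. The 5 controls read -2.23, -1.52, -2.41, -2.55 and -1.36, so NRCWE-043 lay 1.77 above the control mean and NRCWE-045 lay 0.69 below it (difference -0.69, SE 0.41). The 5 NRCWE-044 arrays at 54 µg averaged -2.35 ± 0.68 (SD), and those 6 at 18 µg averaged -2.42 ± 0.49. At 18 µg the NRCWE-043 arrays again read high, at -0.55, 0.42, -0.86, -0.62 and -0.07. Of the NRCWE-045 arrays at 18 µg, replicates 2 and 3 read -2.74 and -3.15, but replicate 1 read -0.40, among the NRCWE-043 values. That array also lay nearest NRCWE-043 of its group for Tspan4, Hlf, Arntl and Nr1d2, so the values at 18 µg are also given without it. Since it was singled out by these genes, the values without it are a description, with no test. The call on Spon2 at 54 µg ended when any of 7 arrays was left out (NRCWE-043 replicate 1, 2 or 3, or NRCWE-045 replicate 1, 2, 3 or 5). The adjusted p was then 0.0668 to 0.278, while the difference stayed between 2.19 and 2.52. The call also ended when the fit took only the 10 arrays of the comparison, without the spread of the other groups.

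**Figure D1:**
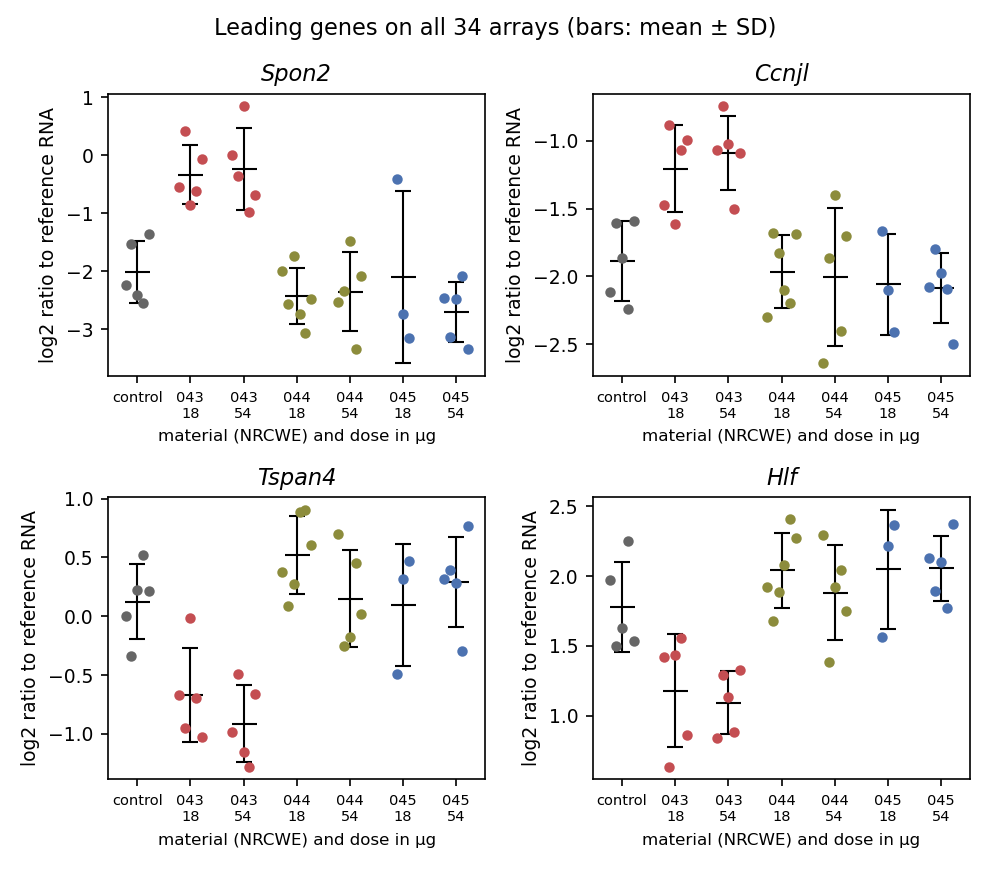
Log2 ratio to the reference RNA (vertical axis) of Spon2, Ccnjl, Tspan4 and Hlf on all 34 arrays, by material and dose; points are arrays, bars are the mean ± SD. The 5 NRCWE-043 arrays at 54 µg lie above (Spon2, Ccnjl) or below (Tspan4, Hlf) all 5 NRCWE-045 arrays at 54 µg.

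Across all units the materials differed little at this dose. The 1 gene called was 0.00341% of the 29351 units tested. At an unadjusted p under 0.05 there were 1499 units (5.11%), 556 higher in NRCWE-043 (1.89%) and 943 lower (3.21%). The groups did not overlap, array by array, for 261 units (0.889%), of which 106 were higher in NRCWE-043 (0.361%) and 155 lower (0.528%). With slide as a block 1 unit passed, Spon2 again, and 2654 had an unadjusted p under 0.05 (9.04%). A difference of at least 1 was measured for 22 units (0.075%), 9 higher (0.0307%) and 13 lower (0.0443%).

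**Figure D2:**
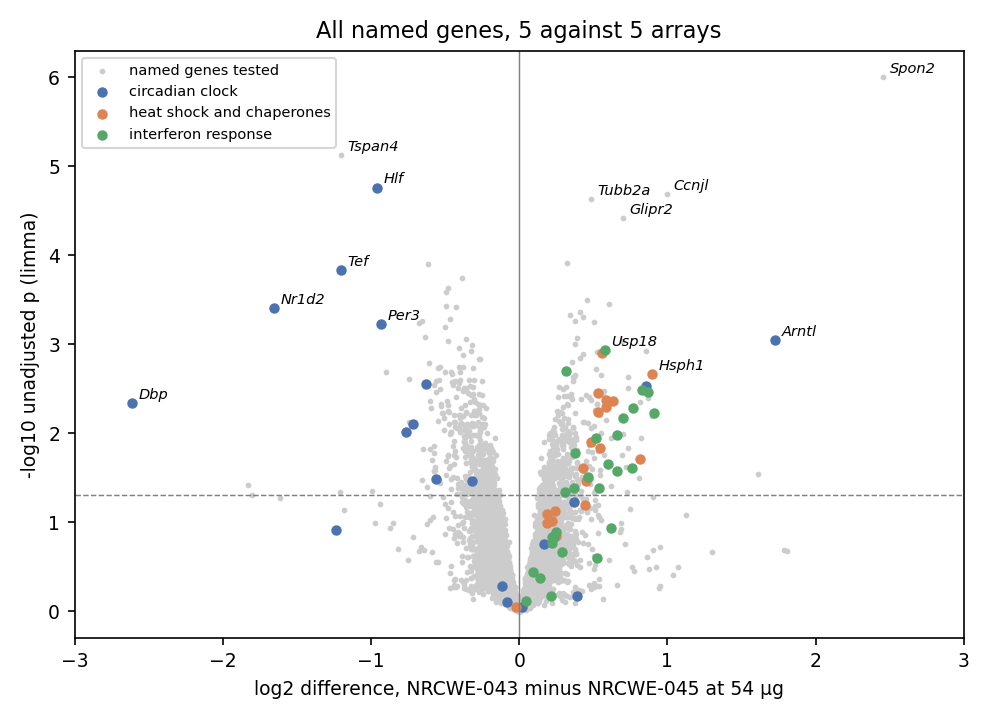
Difference of each named gene between the materials at 54 µg (horizontal axis, log2, NRCWE-043 minus NRCWE-045) against the strength of evidence from limma (vertical axis, negative log10 of the unadjusted value); coloured points are the clock, heat shock and interferon lists, and the dashed line is the unadjusted threshold. Spon2 is the highest point; most heat shock and interferon genes lie right of 0, and Dbp, Nr1d2, Tef and Hlf lie on the left.

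Next to Spon2, the genes with the smallest p on the side of NRCWE-043 did not pass the adjusted test. Ccnjl, a member of the cyclin family, read -1.07, -0.75, -1.03, -1.51 and -1.09 on NRCWE-043 arrays and -2.08, -1.80, -1.97, -2.09 and -2.50 on NRCWE-045 arrays. The groups did not overlap. Its difference was 1.00 ± 0.20 (SE), or 2-fold, with an adjusted p of 0.136. Tubb2a, a beta tubulin, read 1.08 to 1.37 against 0.59 to 0.96, a difference of 0.49 ± 0.10 (adjusted p 0.136), and Glipr2, a protein of the Golgi membrane, differed by 0.70 ± 0.15 (adjusted p 0.167). For both genes every NRCWE-043 array was again above every NRCWE-045 array. The other 8 of the 12 smallest p-values on this side had adjusted p of 0.409 to 0.54 and differences of 0.33 to 0.61. They were the adaptor Shb, the endothelial GTPase Rhoj, the collagen chaperone Serpinh1, the neurturin receptor Gfra2, Cmtm2a, the protease Nrd1, the metal importer Slc39a14 and the transcription factor Batf. In Serpinh1 the NRCWE-043 arrays read 0.22, 0.20, 0.83, 0.26 and -0.05 and the NRCWE-045 arrays -0.27, -0.23, -0.10, -0.64 and -0.33. Of these 8 genes Nrd1 alone overlapped between the groups. A further probe of Shb differed by 0.17 ± 0.16.

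On the side of NRCWE-045 the leading genes included several clock outputs. Tspan4, a tetraspanin of the cell surface, read -0.98, -0.49, -1.15, -1.28 and -0.66 on NRCWE-043 arrays and 0.31, 0.39, 0.28, -0.30 and 0.76 on NRCWE-045 arrays. The groups did not overlap, and NRCWE-045 was 2.3-fold higher (difference -1.20 ± 0.22, SE; adjusted p 0.109). Without NRCWE-045 replicate 4 the difference was -1.35 and its adjusted p 0.0247. Hlf, a transcription factor that binds the D-box, read 0.84, 1.29, 1.14, 0.88 and 1.32 against 2.13, 1.90, 2.10, 1.77 and 2.38. It differed by -0.96 ± 0.19 with an adjusted p of 0.136, and the groups did not overlap. With slide as a random block Tspan4, Hlf and Tubb2a passed together with Spon2, each of the 3 with an adjusted p of 0.04.

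The remaining 10 of the 12 genes with the smallest p on this side had adjusted p of 0.409 to 0.54. Tef and Nr1d2 belong to the clock and are described with it. Pik3ip1, an inhibitor of phosphoinositide 3-kinase, differed by -0.62 ± 0.14, and Ak4, a mitochondrial adenylate kinase, by -0.48 ± 0.12. Tnxb, the matrix protein tenascin X, read 2.72 to 3.08 in NRCWE-043 and 3.22 to 3.51 in NRCWE-045 (difference -0.49 ± 0.12), and Ptgis, prostacyclin synthase, read 1.15 to 1.71 and 1.83 to 2.01 (difference -0.43 ± 0.11). These 4 genes, the pyridoxal kinase Pdxk and the mitochondrial carrier Slc25a33 did not overlap between the groups. Pdxk differed by -0.47 ± 0.12, and by -0.22 ± 0.12 and -0.25 ± 0.13 on other probes. Slc25a33 differed by -0.65 ± 0.17, and by -0.37 ± 0.21 on a further probe. The transferrin receptor Tfrc and Paqr6 overlapped. Other probes of Tfrc differed by -0.47 ± 0.21 and by -0.08 ± 0.12, the latter probe above background on 3 and 2 arrays, and other probes of Paqr6 by -0.47 ± 0.11 and -0.06 ± 0.10.

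Circadian clock genes lay on both sides. Of 19 members tested, 10 were lower in NRCWE-043 and 2 higher at an unadjusted p under 0.05, beside 3.21% and 1.89% of all units, and none passed the adjusted test. The list's median difference was -0.56, against -0.01 over all units, and within slides 1 to 4 it was -0.76, -0.59, -0.036 and 0.053. The list mixes activators with their targets, so a median near 0 on a slide does not mean that its members were equal there. On each of slides 1 to 4, 5 members were higher in NRCWE-043 and 6 lower, beside 1946 and 2445 of all 29351 units. Arntl, the activator at the head of the clock, read 1.33, 0.39, 1.20, 1.34 and -0.09 on NRCWE-043 arrays and -0.80, -0.83, -0.75, -0.50 and -1.59 on NRCWE-045 arrays. The groups did not overlap, and the difference was 1.73 ± 0.47 (SE; 3.31-fold; adjusted p 0.572). Its partner Clock differed by 0.37 ± 0.19, with overlap. Npas2, a relative of Clock, was above background on 3 and 1 of the 5 arrays, and its difference was 0.39 ± 0.90, without overlap. This SE pools the spread of all groups, among them NRCWE-044 at 18 µg, where replicate 6 read 8.77 and the other arrays 0.017 to 0.31. It is therefore not the spread of Npas2 in the groups compared here.

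The targets of ARNTL and CLOCK lay on the other side. Nr1d2, a repressor of Arntl, read -1.48, 0.26, -0.80, -1.07 and 0.58 in NRCWE-043 and 1.30, 1.16, 0.92, 1.28 and 1.10 in NRCWE-045 (difference -1.65 ± 0.42, adjusted p 0.54). Replicates 1, 3 and 4 of NRCWE-043 were the low ones, and replicates 2 and 5 lay nearer NRCWE-045. Dbp, which activates genes through the D-box, split the same way, at -2.15, 0.28, -2.15, -2.54 and 0.89 against 2.01, 1.08, 1.02, 1.81 and 1.48. Its difference was -2.61 ± 0.86, a 6.12-fold lower ratio, with an adjusted p of 0.691. A further Dbp probe differed by -2.79 ± 0.82. Tef, a relative of Dbp, read 0.63, 1.50, 0.82, 1.67 and 1.08 against 2.18, 2.61, 2.14, 2.32 and 2.46 (difference -1.20 ± 0.28, adjusted p 0.424). Per3, a period protein, read -0.18, 0.65, -0.17, -0.20 and 0.49 against 1.06, 0.90, 0.97, 0.76 and 1.55 (difference -0.93 ± 0.24, adjusted p 0.54). Nr1d2, Dbp, Tef, Per3 and Hlf did not overlap between the groups, 5 of the 19 members, beside 0.528% of all units on that side. Arntl and Npas2 were the 2 without overlap on the other side, beside 0.361% of all units.

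Other clock members overlapped. The period genes Per1 and Per2 differed by -0.76 ± 0.28 and -0.72 ± 0.25, the mitotic kinase Wee1 by -0.63 ± 0.19 and the cryptochrome Cry2 by -0.32 ± 0.14. Nr1d1, the second repressor of Arntl, read -2.17, 0.98, -0.94, -2.39 and 1.16 against 1.27, 0.13, 0.46, 0.66 and 0.28. Replicates 2 and 5 of NRCWE-043 were among the NRCWE-045 arrays, and its difference of -1.23 ± 0.78 had an unadjusted p of 0.123. Nfil3, a repressor that competes at the D-box, was the one other member on the side of Arntl at an unadjusted p under 0.05, with a difference of 0.85 ± 0.27. Controls spread widely in the same genes: Dbp read -0.09, -1.73, 1.74, 2.91 and 0.76 in them, and Arntl -0.64, 0.63, -0.85, -1.85 and -0.25. The hour of tissue collection is not given in the labels, and its part in the clock differences was not tested.

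**Figure D3:**
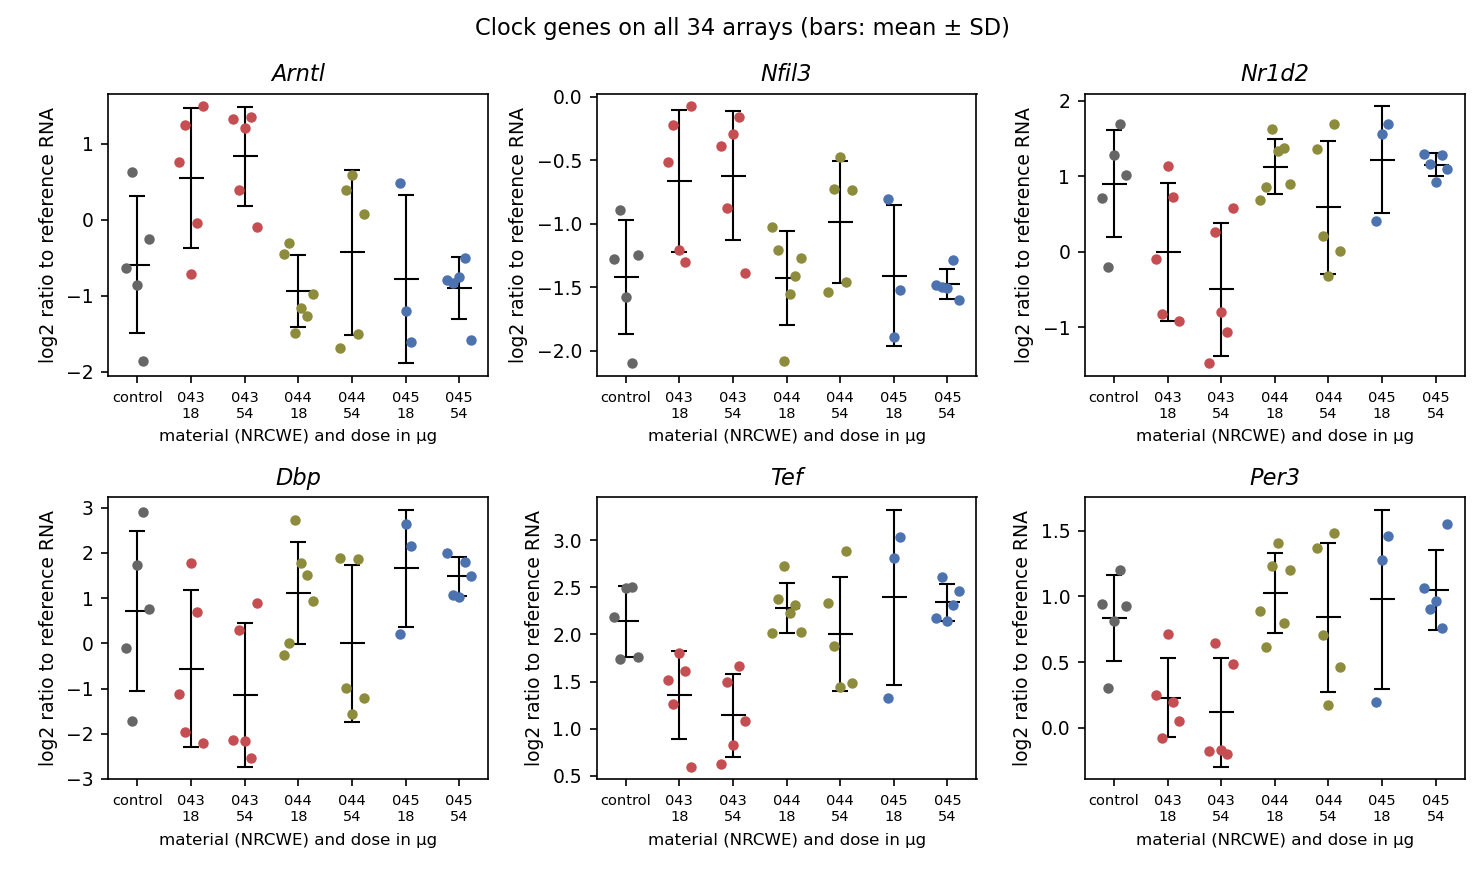
Log2 ratio to the reference RNA (vertical axis) of 6 clock genes on all 34 arrays, by material and dose; points are arrays, bars are the mean ± SD. Arntl and Nfil3 are higher and Nr1d2, Dbp, Tef and Per3 lower in NRCWE-043 than in NRCWE-045 at 54 µg, where the NRCWE-045 arrays lie close together and controls spread widely.

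ARNTL and CLOCK bind the E-box, CACGTG, and DBP, TEF, HLF and NFIL3 bind the D-box, searched here as TTATGNAA. The 250 bases before each start site in RefSeq's promoter table (GRCm38.p6) were searched on both strands. For the clock list it held 20 promoters of 15 genes. An E-box was in 5 of the 20 promoters, from 4 genes (Bhlhe41, Ciart, Per1 and Tef), and a D-box in 2 (Per1 and Per3). Across all 32851 promoters searched, 6.02% had an E-box and 3.07% a D-box. The promoters of Tef and Per3 are printed because both genes separated the groups completely and each holds a motif of the loop just described; capitals mark the E-box in Tef (chr15:81802423-81802672, strand +) and both D-boxes in Per3 (chr4:151044666-151044915, strand -), and a match is a run of letters, not a shown binding site.
Tef: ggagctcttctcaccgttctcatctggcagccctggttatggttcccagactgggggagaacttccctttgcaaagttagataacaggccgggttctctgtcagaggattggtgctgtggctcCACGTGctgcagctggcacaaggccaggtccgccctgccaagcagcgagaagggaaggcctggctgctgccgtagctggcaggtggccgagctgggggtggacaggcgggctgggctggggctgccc
Per3: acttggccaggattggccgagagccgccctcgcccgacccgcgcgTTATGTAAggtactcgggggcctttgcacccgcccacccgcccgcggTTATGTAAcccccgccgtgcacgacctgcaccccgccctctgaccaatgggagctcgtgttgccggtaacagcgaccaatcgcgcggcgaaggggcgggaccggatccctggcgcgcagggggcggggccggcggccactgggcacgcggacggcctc

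Chaperone genes read higher in NRCWE-043 on 4 of its 5 arrays. Of 19 heat shock and chaperone genes tested, 18 had a difference above 0 and 12 an unadjusted p under 0.05 on the side of NRCWE-043, beside 1.89% of all units. None passed the adjusted test, and the list's median difference was 0.48. The list score was 0.08, 0.11, 0.45, 0.55 and -0.29 on NRCWE-043 arrays and -0.27, -0.28, -0.29, -0.21 and -0.31 on NRCWE-045 arrays. Replicate 5 of NRCWE-043 was therefore among the NRCWE-045 values. Without it the median was 0.61, with 16 genes at an unadjusted p under 0.05 on that side, beside 579 of all 29351 units. Controls ranged from -0.27 to 0.36, so they overlapped both groups.

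The cytosolic HSP90 gene Hsp90ab1 read 0.46, 0.10, 0.59, 0.49 and 0.15 in NRCWE-043 and -0.17, -0.16, -0.09, -0.40 and -0.19 in NRCWE-045. The groups did not overlap, and the difference was 0.56 ± 0.16 (SE; adjusted p 0.642). Stip1, which links HSP70 to HSP90, did not overlap either, with a difference of 0.59 ± 0.19. These were the 2 members of the list without overlap, beside 0.361% of all units on that side. Hsph1, a nucleotide exchange factor of HSP70, read 0.26, 0.38, 0.86, 1.00 and -0.64 against -0.57, -0.45, -0.59, -0.46 and -0.55. It differed by 0.90 ± 0.27 and by 0.88 ± 0.27 on a further probe, with replicate 5 of NRCWE-043 below all NRCWE-045 arrays. The inducible HSP70 gene Hspa1a differed by 0.82 ± 0.33, a value that its near-identical neighbour Hspa1b may share. The constitutive Hspa8, the inducible HSP90 gene Hsp90aa1 and the HSP90 partner Chordc1 differed by 0.53 ± 0.18, 0.59 ± 0.19 and 0.53 ± 0.17.

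Heat shock factor 1 binds repeats of a short element, searched here as GAANNTTC on both strands. It was present in 6 of the list's 21 promoters and in 6.69% of all promoters. The 6 came from 6 of the 15 genes with a promoter there (Dnaja1, Fkbp4, Hspa1a, Hspb1, Hspd1 and Hspe1). The Hspa1a promoter (chr17:34972157-34972406, strand -) is printed as the member of this list with the widest difference that holds the element, which is in capitals.
Hspa1a: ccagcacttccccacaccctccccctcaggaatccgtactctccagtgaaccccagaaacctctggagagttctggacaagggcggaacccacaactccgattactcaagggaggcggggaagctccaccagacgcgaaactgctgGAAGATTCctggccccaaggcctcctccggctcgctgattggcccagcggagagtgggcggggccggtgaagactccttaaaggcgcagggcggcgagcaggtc

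Interferon genes read higher in NRCWE-043, most of all on 1 array. All 28 members tested had a difference above 0, and 17 had an unadjusted p under 0.05 on that side, beside 1.89% of all units. The list's median difference was 0.49, and none passed the adjusted test. Without overlap were 3 members (Irf9, Oas2 and Irf7), beside 0.361% of all units on that side. The list score was 1.53, 0.06, 0.15, 0.35 and 0.33 on NRCWE-043 arrays and -0.09, 0.04, 0.08, 0.07 and -0.02 on NRCWE-045 arrays. Replicate 1 stood apart, and the list's median differences within slides 1 to 4 were 1.54, 0.02, 0.14 and 0.27. Without that array the median was 0.21, 25 members were above 0 and 5 had an unadjusted p under 0.05 on that side. The count over all 29351 units was then 511. Control replicate 1, on the same slide, had the highest score of the controls at 0.49, and NRCWE-045 replicate 1, also on it, had the lowest of its group.

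Oas2, which senses double-stranded RNA, read 1.72, 0.03, 0.16, 0.02 and 0.20 in NRCWE-043 and -0.49, -0.39, -0.68, -0.01 and -0.44 in NRCWE-045 (difference 0.83 ± 0.26, adjusted p 0.691). Irf7, the factor that amplifies interferon production, read 0.89, -0.80, -0.90, -0.87 and -0.45 against -1.48, -0.97, -1.34, -1.42 and -1.27 (difference 0.87 ± 0.28, adjusted p 0.691). In both genes the groups just separated, with replicate 1 far above the rest. Without replicate 1 the differences were 0.51 and 0.54. Isg15, a ubiquitin-like protein, read 1.45, -1.05, -0.81, -0.02 and -0.79 against -1.42, -0.85, -1.26, -0.96 and -1.26, with overlap, and differed by 0.91 ± 0.31 (0.48 without replicate 1). Usp18, which removes ISG15 from proteins, differed by 0.58 ± 0.16, Irf9 by 0.31 ± 0.09 and Ifit1 by 0.76 ± 0.25.

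The interferon element was searched on both strands as GAAA, any 2 bases and GAAA again. It was present in 11 of the list's 24 promoters, from 11 of 21 genes, and in 2.98% of all promoters. Isg15 is shown (chr4:156200819-156201068, strand -) because it had the widest difference of the list. It has 3 overlapping matches, in capitals.
Isg15: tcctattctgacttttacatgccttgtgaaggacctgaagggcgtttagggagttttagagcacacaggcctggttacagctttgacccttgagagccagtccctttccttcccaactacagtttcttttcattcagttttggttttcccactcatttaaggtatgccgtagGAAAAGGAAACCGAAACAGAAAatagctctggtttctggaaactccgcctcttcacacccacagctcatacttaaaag

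Genes of inflammation overlapped between the materials. Of 16 CXC chemokine and receptor genes 14 had a difference above 0 and 1 had an unadjusted p under 0.05 on the side of NRCWE-043, beside 1.89% of all units, with a median of 0.22 that was 0.04 without NRCWE-043 replicate 1. Cxcl5, a neutrophil attractant, read 1.37, -2.65, -3.10, -0.07 and -3.95 in NRCWE-043 and -4.45, -3.22, -4.18, -1.40 and -3.20 in NRCWE-045. It was high on replicates 1 and 4 of NRCWE-043 and on replicate 4 of NRCWE-045, and its difference of 1.61 ± 0.70 had an adjusted p of 0.892. The difference was 0.85 without NRCWE-043 replicate 1. Of 19 CC chemokine and receptor genes 15 had a difference above 0, with a median of 0.17, and none had an unadjusted p under 0.05. That count stayed at 0 without NRCWE-043 replicate 1, where the median was 0.11 and 10 of 19 were above 0. It was 4 without NRCWE-045 replicate 4, 2 without NRCWE-043 replicate 5 and 3 with slide as a block, all on the side of NRCWE-043. Of all 29351 units 511, 567, 579 and 1127 were on that side at such a p in these settings, in this order. The monocyte attractants Ccl2 and Ccl7 differed by 0.54 ± 0.31 and 0.74 ± 0.40, with replicate 1 of NRCWE-043 at -2.13 and -1.21 above all others.

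For the genes fixed as a panel of the nanotube response, adjusted p-values were 0.892 to 1. The acute phase genes Saa3 and Lcn2 differed by 0.50 ± 0.51 and 0.19 ± 0.29, and both differences turned negative without NRCWE-043 replicate 1. The cytokine Il1b differed by 0.26 ± 0.31, the neutrophil attractant Cxcl1 by 0.23 ± 0.39 and the B cell attractant Cxcl13 by 0.60 ± 0.53. Among macrophage genes Trem2 and Gpnmb differed by 0.09 ± 0.31 and 0.35 ± 0.29, Spp1 by 0.12 ± 0.22, Arg1 by 0.14 ± 0.32, and Mmp12, above background on 2 arrays of each group, by 0.17 ± 0.13. Trem2 and Spp1 also turned negative without NRCWE-043 replicate 1. The antioxidant enzyme Hmox1 differed by 0.39 ± 0.19 and the protease inhibitor Timp1 by 0.24 ± 0.19. The oxidative stress list, which holds Hmox1, had a median of -0.07, with 7 of 19 genes above 0. The collagen gene Col1a1 differed by 0.17 ± 0.20. With standard errors of this size the difference between the materials could not be fixed to within a doubling for genes such as Saa3 or Cxcl13.

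Matrix genes differed little. Of 29 extracellular matrix genes 23 had a difference above 0, 3 had an unadjusted p under 0.05 on the side of NRCWE-043, beside 1.89% of all units, and the median was 0.12. The 3 were Loxl1, which cross-links elastin (0.45 ± 0.19), Eln, elastin (0.51 ± 0.25), and Fbn1, fibrillin (0.25 ± 0.12). Eln took the other sign, -0.16, with the scanner software's processed signals. In 16 p53 target genes the median was 0.02. Cdkn1a, the p21 inhibitor of the cell cycle, read -0.29, -0.23, 0.12, -0.59 and -0.66 in NRCWE-043 and -0.85, -1.16, -0.77, -1.37 and -0.99 in NRCWE-045. It did not overlap and differed by 0.70 ± 0.28, or 0.19 ± 0.14 on a further probe. Bbc3, which promotes cell death, did not overlap and differed by 0.29 ± 0.10. Cdkn1a and Bbc3 were the 2 p53 targets without overlap, beside 0.361% of all units on that side. No other p53 target had an unadjusted p under 0.05.

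Further genes were among the widest differences without overlap on the side of NRCWE-043. They were Rasl11a, a small GTPase (0.90 ± 0.31), Adamts17, a protease (0.86 ± 0.24, and 0.20 ± 0.12 on a further probe), and Pde4b, a phosphodiesterase that ends cyclic AMP signals (0.73 ± 0.22, and 0.61 ± 0.22 on a further probe). On the other side, Apoa2, a liver apolipoprotein, read 0.22, 0.57, 0.05, 0.46 and 0.60 in NRCWE-043 and 1.67, 1.38, 1.04, 0.89 and 1.41 in NRCWE-045 (difference -0.90 ± 0.27, adjusted p 0.691). A further probe of Apoa2 differed by -0.55 ± 0.57. The array with the high liver score, NRCWE-045 replicate 1, was the highest for Apoa2 on the first probe. Another liver gene, Serpina1c, read 3.42 on that array, 1.40 on replicate 2 and -0.12 to 0.54 on the other 3 of NRCWE-045. Its NRCWE-043 arrays read -0.01 to 0.22.

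Markers of lung and blood cells gave few differences. In the lists of lung and immune cell types (monocytes and interstitial macrophages, alveolar macrophages, neutrophils, T cells, fibroblasts and others) the median difference lay between -0.11 and 0.19. Of 17 neutrophil markers 13 had a difference above 0, with a median of 0.19. Csf3r, the receptor that drives neutrophil production, lay on the other side at -0.52 ± 0.18, with overlap. Of 12 dendritic cell markers 9 were above 0, with a median of 0.08. In that list Bst2, an antiviral membrane protein, differed by 0.60 ± 0.25 and Siglech, a plasmacytoid dendritic cell marker, by -0.44 ± 0.15, or -0.09 ± 0.17 on a further probe. Csf3r and Siglech passed the adjusted test at 18 µg, with differences of -0.96 and -0.83 there (adjusted p 0.0272 and 0.0298), and of -1.08 and -0.90 without NRCWE-045 replicate 1 at 18 µg. The 2 probes read alike array by array, so these are not 2 separate results on cell types. In NRCWE-044 at 18 µg Csf3r read 1.25, 2.14, 1.49, 1.33, 1.24 and 1.70, and Siglech 1.24, 1.99, 1.44, 1.32, 1.29 and 1.64. The further Siglech probe was not examined at 18 µg. Of 19 fibroblast markers 6 were above 0, with a median of -0.07. The growth factor receptor Pdgfrb differed by 0.32 ± 0.15 and the hedgehog pathway factor Gli1 by -0.36 ± 0.18. Of 16 genes of antigen presentation 8 were above 0, with Cd40, a receptor on antigen-presenting cells, at 0.30 ± 0.15. Of 20 genes of type 2 immunity 14 were above 0, with the interleukin 4 receptor Il4ra at 0.37 ± 0.14, or 0.09 ± 0.11 on a further probe. Gata3, of the same list, lay on the other side at -0.34 ± 0.16. In whole lung, fewer cells of a type and less RNA per cell cannot be told apart.

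**Figure D4:**
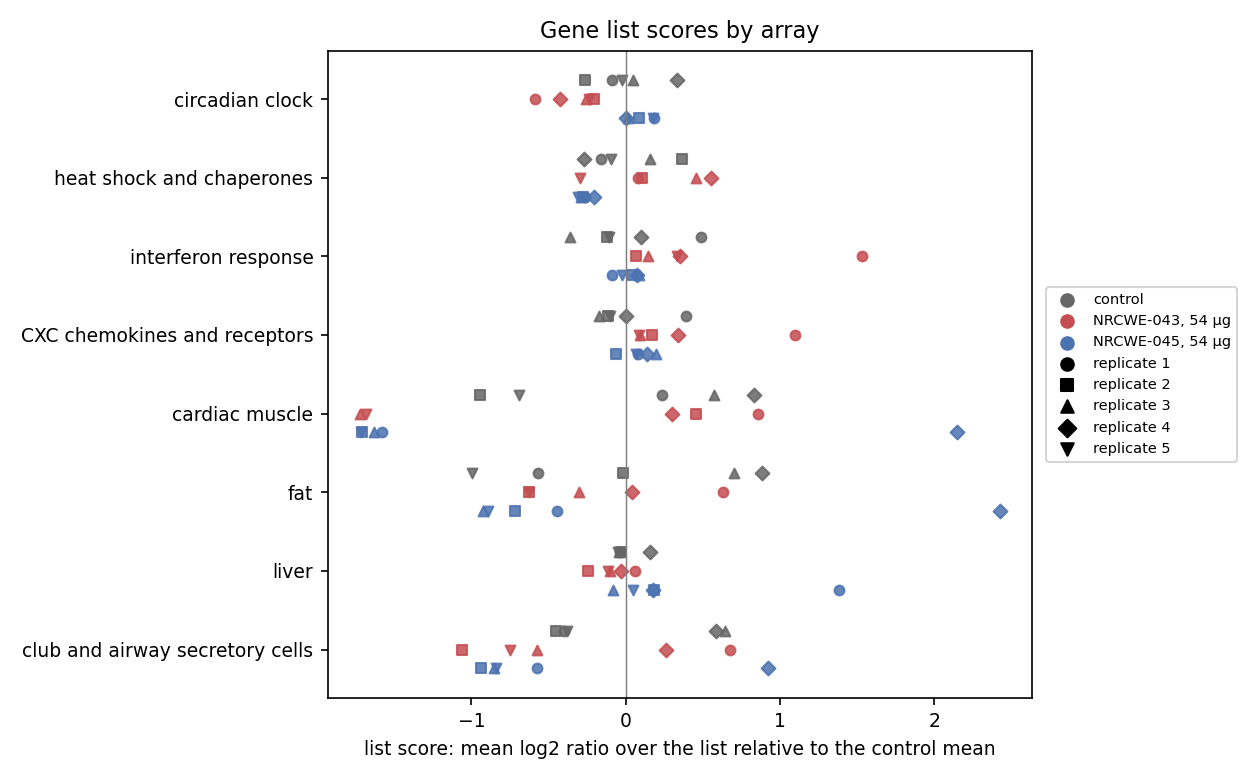
List score of each array (horizontal axis, mean log2 ratio over the list relative to the control mean) for 8 gene lists (rows); colours are groups and symbols are replicate numbers in deposit order. NRCWE-043 replicate 1 stands out in the interferon and CXC lists, NRCWE-045 replicate 4 in heart, fat and airway lists and NRCWE-045 replicate 1 in the liver list; the chaperone scores of 4 NRCWE-043 arrays lie above those of all NRCWE-045 arrays.

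The 18 µg groups gave a second look at the leading genes, since they share no array with the 54 µg groups, though they share slides. Both comparisons also came from the same fit, which pools the residual variance of each gene over all groups. Genes chosen for a small p at 54 µg tend to have a small pooled variance, which also lowers their p at 18 µg. Their p-values at 18 µg are therefore not independent of the choice, while the differences come from separate arrays. All 24 genes with the smallest p at 54 µg, 12 on each side, had the same sign at 18 µg. The share of all units with the same sign at both doses was not counted. Of the 24, 17 had an unadjusted p under 0.05 there on their side, 9 of 12 higher and 8 of 12 lower in NRCWE-043. Over all 29351 units 1016 were higher and 2128 lower at such a p, together 10.7%. The 18 µg comparison called 132 units (0.45%), of which 1 was among the 24 (Ak4, -0.57 ± 0.13, adjusted p 0.0421). At 18 µg Spon2 differed by 1.76 ± 0.47 (adjusted p 0.0775), Ccnjl by 0.85 ± 0.23, Tspan4 by -0.77 ± 0.26 and Hlf by -0.87 ± 0.22 (adjusted p 0.0568). Without NRCWE-045 replicate 1 at 18 µg, the array that read like NRCWE-043, the differences were 2.61 for Spon2, 1.04 for Ccnjl, -1.06 for Tspan4, -1.11 for Hlf and -0.79 for Ak4. For the genes that singled it out, a larger difference follows from leaving it out. That leaves 2 arrays of NRCWE-045, of which replicate 2 had a liver score of 3.74 and a fat score of 1.34.

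The lists did not all carry over between doses. The clock list had a median of -0.38 at 18 µg, and -0.60 without NRCWE-045 replicate 1. Arntl differed by 1.32 ± 0.54 (1.95 without that array) and Dbp by -2.22 ± 0.99 (-2.96 without it). The heat shock list had a median of 0.19, with 16 of 19 above 0, and 0.13 without the array. The interferon list had a median of -0.26 with 4 of 28 above 0, the opposite side from 54 µg, and -0.23 without the array. In the test of the difference between doses 0 units passed the adjusted test with limma (0%) and 871 had an unadjusted p under 0.05 (2.97%). Of the 28 interferon genes 17 were among these 871 (13 had such a p without NRCWE-045 replicate 1 at 18 µg), and 0 of 19 in the clock and 0 of 19 in the heat shock list. Oas2 differed between doses by 1.46 ± 0.40 (unadjusted p 0.000913, adjusted p 0.999), with NRCWE-043 replicate 1 far above its group at 54 µg. For Spon2 the difference between doses was 0.70 ± 0.62 (unadjusted p 0.27).

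**Figure D5:**
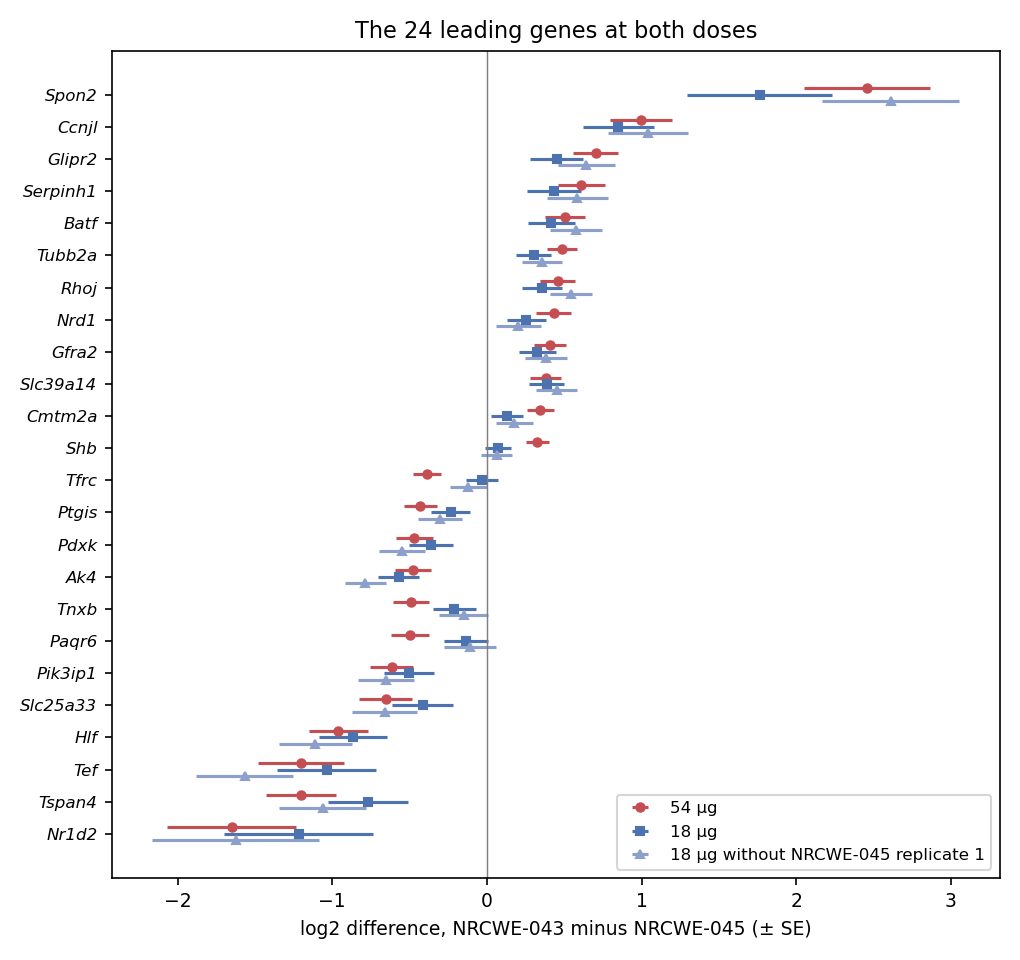
Difference NRCWE-043 minus NRCWE-045 (horizontal axis, log2, with its SE) of the 24 genes with the smallest p at 54 µg (rows), at 54 µg, at 18 µg and, as a description, at 18 µg without 1 NRCWE-045 array that was singled out by some of these genes. The 24 genes take the same sign at both doses.

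NRCWE-044 at 54 µg is set beside both, although its comparisons share these arrays. NRCWE-043 minus NRCWE-044 gave 2.11 ± 0.41 for Spon2, 0.91 ± 0.20 for Ccnjl, -1.06 ± 0.22 for Tspan4 and -0.79 ± 0.19 for Hlf. NRCWE-044 minus NRCWE-045 gave 0.35 ± 0.41, 0.09 ± 0.20, -0.14 ± 0.22 and -0.17 ± 0.19 for the same genes. In these 4 genes the differences between NRCWE-044 and NRCWE-045 were each smaller than their standard error. For Dbp the values were -1.13 ± 0.86 and -1.48 ± 0.86, since NRCWE-044 itself spread from -1.57 to 1.90. With limma 0 units passed the adjusted test in either comparison, and 1407 (4.79%) and 1058 (3.6%) had an unadjusted p under 0.05.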

How the data were processed

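Two-colour arrays of lung RNA (Cy5, 200 ng) and reference RNA (Cy3) were used. Per the file headers, the authors extracted spots with Agilent Feature Extraction 11.0.1.1. The deposited scanner files give spot and background intensity per channel and flags of 0 or 1 for spots above background or irregular. A series table from the authors holds log2 ratios of Cy5 to Cy3. How it was made is not stated in the labels. Here, limma 3.58.1 (R 4.3.3) subtracted background (normexp, offset 50) and normalized each array by loess. Of 62976 spots 3671 were controls and took weight 0. Symbols came from RefSeq accessions (27235 of 55681 probes). The probe with the highest mean Cy5 stood for a gene. Units above background on at least 3 arrays were tested (29351), with 7 group means over 34 arrays, empirical Bayes and Benjamini-Hochberg adjustment at 0.05. The script was tested on simulated data. Slide, normalization, signal, filter, probe, weighting and left-out arrays were varied.

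Members and the 40 lists were chosen with earlier results of these data known. Genes named are the 12 smallest p in each direction, up to 3 per list, a panel of 15 and, per direction, the 8 widest differences without overlap and with 1 sign on all 4 shared slides. Per2, Nfil3, Wee1, Cry2, Clock, Nr1d1, Npas2, Hsp90aa1, Stip1, Hspa1a, Hspa8, Isg15 and Ifit1, with the lung markers Sftpc and Scgb1a1, were added after their values were seen. One control array is titled NRCWE-043 with 0 µg but labelled as a control, and was used as one. Groups hold 3 to 6 arrays, a number that limits the precision.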

Additional observations from a re-analysis of the deposited data

Results flagged for a closer look

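An array lying far from the other 4 of its group was looked for in both groups at 54 µg. The search took 11 lists and the genes named other than Sftpc, Scgb1a1 and Gata3. Such an array was found in 13 of 186 series of values, where chance would give about 1 in 20. Replicate 1 of NRCWE-043 lay above its group in the interferon score (1.53, next 0.35), the CXC chemokine score (1.09, next 0.34), the CC chemokine score (1.14, next 0.31), Oas2 (1.72, next 0.20), Irf7 (0.89, next -0.45) and Col1a1 (-2.04, next -2.28). Replicate 4 of NRCWE-045 lay above its group in the heart score (2.15, next -1.58), the fat score (2.42, next -0.45), the club and airway score (0.92, next -0.58) and Sln, an atrial muscle gene (6.85, next 0.30), and below it in Pdgfrb (0.84, next 1.16). Replicate 1 of NRCWE-045 lay above its group in the liver score (1.38, next 0.18). Replicate 3 of NRCWE-045 lay above its group in Loxl1 (-0.065, next -0.41).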

How the results depend on the processing

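Units past the threshold at 54 µg numbered 1 in the report. They were 4 with slide as a random block, 6 with array weights, 0 with the scanner software's processed signals, 0 with a trended and robust prior, and 0 with only the 10 arrays, with or without slide as a block. With 1 array of the 2 groups left out there were 0 to 3. The alternatives chosen after seeing the data gave 0 without NRCWE-043 replicate 1 and NRCWE-045 replicate 4 together, and 2 (Spon2 and Tspan4) without NRCWE-045 replicate 1 at 18 µg, an array singled out by these genes. The difference between doses called 0 units in each of these settings that could test it. Signs turned for Npas2 with slide as a block (-0.022), for Eln with processed signals (-0.16), and, with 1 array left out, for Saa3 (-0.18 to 0.79), Lcn2 (-0.10 to 0.44), Trem2 (-0.14 to 0.26) and Spp1 (-0.072 to 0.25). Over all settings the list medians ranged from -0.29 to 0.40 for fat, -0.094 to 0.20 for club and airway cells, -0.038 to 0.091 for macrophage lysosome genes and 0.070 to 1.34 for heart. The liver median was -0.91 with processed signals. The cause of these shifts was not tested. No paired analysis was possible because the replicate numbers follow the deposit order; slide served as the block. Intensities near background, as for Npas2 and Mmp12, limit what can be read. For Npas2 the SE also takes in a reading of 8.77 on NRCWE-044 replicate 6 at 18 µg, an array outside the comparison.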
